A study of Mus musculus with 33 samples.

Results

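C/D box small nucleolar RNAs (snoRNAs) were followed across 33 Myc-CaP tumours. The table of 48795 rows holds 99 rows whose symbol starts with Snord, and the 49 rows with at least 0.5 FPKM in at least 5 of the 33 tumours were taken as members. FPKM is a fragment count scaled to the length of the gene and the depth of the library. The other 50 Snord rows were listed at 0 in all 33 tumours.

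Myc-CaP is a mouse prostate cancer cell line derived from a tumour that a prostate-directed MYC transgene had driven. Its cells were placed under the skin of both flanks of male FVB mice. ESK981 is an orally given inhibitor of several kinases, and anti-PD-1 is an antibody that blocks an inhibitory receptor of T cells. The vehicle group had 10 tumours, the ESK981 group 8, the group given ESK981 with anti-PD-1 (the combination) 8 and the anti-PD-1 group 7, each from 5 mice. ESK981 was dosed at 15 mg/kg by gavage and the antibody, anti-PD-1 or an isotype control, at 200 µg per injection, for 3 weeks. All groups shared the cell line, the strain and the sex. Each tumour is named by its group, a mouse number and its flank (L or R), and the mouse was taken as the replicate, since tumours on both flanks share an animal.

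C/D box snoRNAs are named for 2 short conserved stretches, box C near the start and box D near the end, which pair into a fold that the proteins fibrillarin, NOP56, NOP58 and SNU13 bind. Most members guide fibrillarin to single nucleotides of ribosomal RNA, where it adds a methyl group to the ribose. A few, among them Snord118 (U8) and Snord13 (U13), take part in the cutting or the acetylation of ribosomal RNA instead. In mammals most of these RNAs are cut out of the introns of protein-coding or non-coding host genes, so that the level of a snoRNA depends both on its host's transcription and on its own release and stability.

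The sequences below are those of the 3 members that fell in ESK981 tumours, of the 6 with the largest rise among the 7 that rose, of Snord118 for comparison, and of 1 pair of members that share a stretch. They come from the GENCODE M21 transcripts on the GRCm38 build, run 5′ to 3′ and stand in DNA letters. In the first 10, capitals mark the core of box C (TGATG, searched in the first 30 bases) and of box D (CTGA, searched in the last 20 bases) on the transcript's own strand. The members that fell come first.

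Snord17: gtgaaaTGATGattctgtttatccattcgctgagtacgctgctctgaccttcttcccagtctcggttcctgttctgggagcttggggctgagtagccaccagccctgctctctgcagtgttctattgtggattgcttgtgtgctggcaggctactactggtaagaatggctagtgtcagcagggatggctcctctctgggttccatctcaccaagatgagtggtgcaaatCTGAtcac
Snord15a: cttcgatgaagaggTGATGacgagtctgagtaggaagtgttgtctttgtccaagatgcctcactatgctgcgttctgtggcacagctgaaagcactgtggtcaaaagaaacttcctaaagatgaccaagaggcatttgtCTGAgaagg
Snord23: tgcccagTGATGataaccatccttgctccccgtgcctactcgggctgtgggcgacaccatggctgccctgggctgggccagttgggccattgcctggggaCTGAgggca
Snord118: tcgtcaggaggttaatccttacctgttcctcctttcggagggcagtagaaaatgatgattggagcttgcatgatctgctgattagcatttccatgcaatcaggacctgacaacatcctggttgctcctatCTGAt
Snord59a: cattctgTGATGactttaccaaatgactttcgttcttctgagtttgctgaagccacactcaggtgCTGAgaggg
Snord73a: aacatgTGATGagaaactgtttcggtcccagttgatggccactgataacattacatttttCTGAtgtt
Snord70: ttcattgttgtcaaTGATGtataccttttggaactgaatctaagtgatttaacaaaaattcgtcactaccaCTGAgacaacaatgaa
Snord91a: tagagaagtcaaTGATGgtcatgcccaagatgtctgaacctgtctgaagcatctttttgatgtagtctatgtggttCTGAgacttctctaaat
Snord69: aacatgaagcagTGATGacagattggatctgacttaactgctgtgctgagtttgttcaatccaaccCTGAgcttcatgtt
Snord98: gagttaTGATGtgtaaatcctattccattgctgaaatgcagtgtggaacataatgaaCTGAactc

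Snord17 is 238 bases long, Snord15a 148 and Snord118 135, and these 3 were the members over 130 bases, against a median of 80 bases over the 49 members. Snord17 lies at chr2:144265979-144266216 on the minus strand in an intron of Snx5. Snord15a lies at chr7:99482785-99482932 on the minus strand in an intron of Rps3, and Snord23 at chr7:15938762-15938870 on the minus strand in an intron of Nop53. Among those that rose, Snord59a lies at chr10:128084143-128084216 in an intron of Atp5b, Snord73a at chr3:86138791-86138858 in an intron of Rps3a1 and Snord70 at chr1:59691934-59692020 in an intron of Nop58. Snord91a lies at chr11:74905424-74905516 in an intron of Tsr1 and Snord98 at chr10:62765576-62765640 in an intron of Ccar1. Snord8, the seventh to rise, lies at chr14:52209785-52209894 on the minus strand in an intron of Chd8. Snord69 lies at chr14:31014287-31014366 within an annotated exon of Gnl3. Snord118 at chr11:69073427-69073561 has no annotated gene of its strand around it.

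The label held in the sequences. Both cores stood in their windows in 42 of 49 members (85.7%), against 0.531% of the 141672 GENCODE M21 transcripts searched in the same windows and 0 of 42 transcripts of H/ACA snoRNAs (symbols starting with Snora), the other large class. The core of box C was absent from its window in 6 members (Snord118, Snord85, Snord71, Snord19, Snord93 and Snord43), and that of box D in Snord53. The match is one of letters and not a test of binding.

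Members are mostly distinct in sequence. Over 1128 pairs the longest shared stretch had a median of 7 bases, and it exceeded 12 bases in 3 pairs. Snord49a and Snord49b, both in introns of the non-coding gene 2410006H16Rik, share 13 bases, marked here in capitals.

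Snord49a: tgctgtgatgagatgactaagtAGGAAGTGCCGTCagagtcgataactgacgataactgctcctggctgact
Snord49b: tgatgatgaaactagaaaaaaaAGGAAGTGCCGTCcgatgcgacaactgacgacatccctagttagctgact

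The longest shared stretch of any pair was 18 bases, in Snord42a and Snord42b, both carried by Rpl23a. How the authors assigned fragments that fit such a stretch in both genes is not given in the sources used here.

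By place, 38 members lay in introns, and 4 lay wholly and 4 partly within an annotated exon of their host. The other 3 (Snord118, Snord104 and Snord13) had no host gene of their strand. The 46 members with a host came from 36 genes, of which 7 carried more than 1 member. The rows listed at 0 differed in place. Of those 50 rows, 33 (66.0%) lay wholly within an exon of a same-strand gene, against 4 of the 49 members (8.16%), and the other 17 were near-identical copies named Snord116l. Rps3 shows both cases, since Snord15a in its intron was among the most abundant members while its paralog Snord15b, within an annotated exon of Rps3, was listed at 0. Snord14a, Snord14e, Snord22, Snord47, Snord64 and Snord107 were likewise listed at 0 and lay within an exon. For these rows a 0 therefore gives no level of the snoRNA, and what made it 0 was not tested.

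The libraries differed in ways that touch the members. Depth was lowest in vehicle 5R, at 9901150 fragments, and highest in ESK981 1R, at 32439000, recovered from the whole steps of low FPKM values. Flow cell and lane were read here from parts of the library names in the sample descriptions, which do not label those parts. By this reading, 9 of the vehicle tumours were sequenced on 1 flow cell, whereas vehicle 5R and the 23 treated tumours were on another. Treatment and flow cell therefore cannot be told apart. Lanes also followed the treatments, with all 7 anti-PD-1 tumours in 1 lane that held no other treated tumour. Genes of ribosomal-RNA-like sequence (Gm23935, Gm26917 and Gm42418) and mitochondrially encoded genes together took 9.60% to 46.8% of fragments in vehicle tumours (median 20.7%) and 3.16% to 15.2% in ESK981 tumours (median 4.42%). With the combination the share was 3.99% to 18.3%, and with anti-PD-1 alone 6.80% to 30.6%. The highest share within each group was that of vehicle 5R (46.8%), ESK981 3R (15.2%), combination 5R (18.3%) and anti-PD-1 4R (30.6%), so counts of members are also given without these tumours. The tumour labelled anti-PD-1 4R lay within the vehicle range, and apart from the other 6 of its group, in Snord17 and Snord15a. Its label was kept, and whether it is right was not tested. Fibroblast genes (Col1a1 and Col1a2, both lower), T cell and macrophage genes (Cd3e and Cd68, lower) and the endothelial gene Cdh5 (higher) also passed the test in ESK981 tumours. Of the luminal epithelial keratins, Krt8 was detected and Krt18 stayed near 0, and the epithelial gene Epcam had a median of 0 in vehicle tumours. The part of cell makeup in the results below was not tested.

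In ESK981 tumours 7 members were higher and 3 lower than in vehicle tumours at a limma adjusted p under 0.05 (log2(FPKM + 0.5), 5 mice per group, Benjamini-Hochberg over 15846 genes). The 10 called members are 20.4% of 49, against 14.4% of all genes tested. The 7 higher members are 14.3% of 49, against 8.95% of all genes called higher. The 3 lower are 6.12%, near the 5.43% of all genes called lower. The median difference was 0.38 log2 units over the members and 0.11 over all genes, and 33 of 49 members had a positive difference. In combination tumours 2 members were lower (background 0.524%) and 0 higher (background 0.082%). For either direction the background was 0.606%. By unadjusted p under 0.05 in limma 14 of 49 members and 1970 of 15846 genes differed. In anti-PD-1 tumours 2 members were lower (background 0.309%) and 0 higher (background 0.473%), with 0.783% of all genes called in either direction. Here 12 of 49 members and 2089 of 15846 genes had an unadjusted limma p under 0.05. The 2 lower members were Snord17 and Snord15a in both cases. All 3 comparisons share the vehicle tumours, so their values stand side by side and are not independent. By sign alone, 28 members were above vehicle in all 3 comparisons, 9 below in all 3, and 12 mixed.

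**Figure D1:**
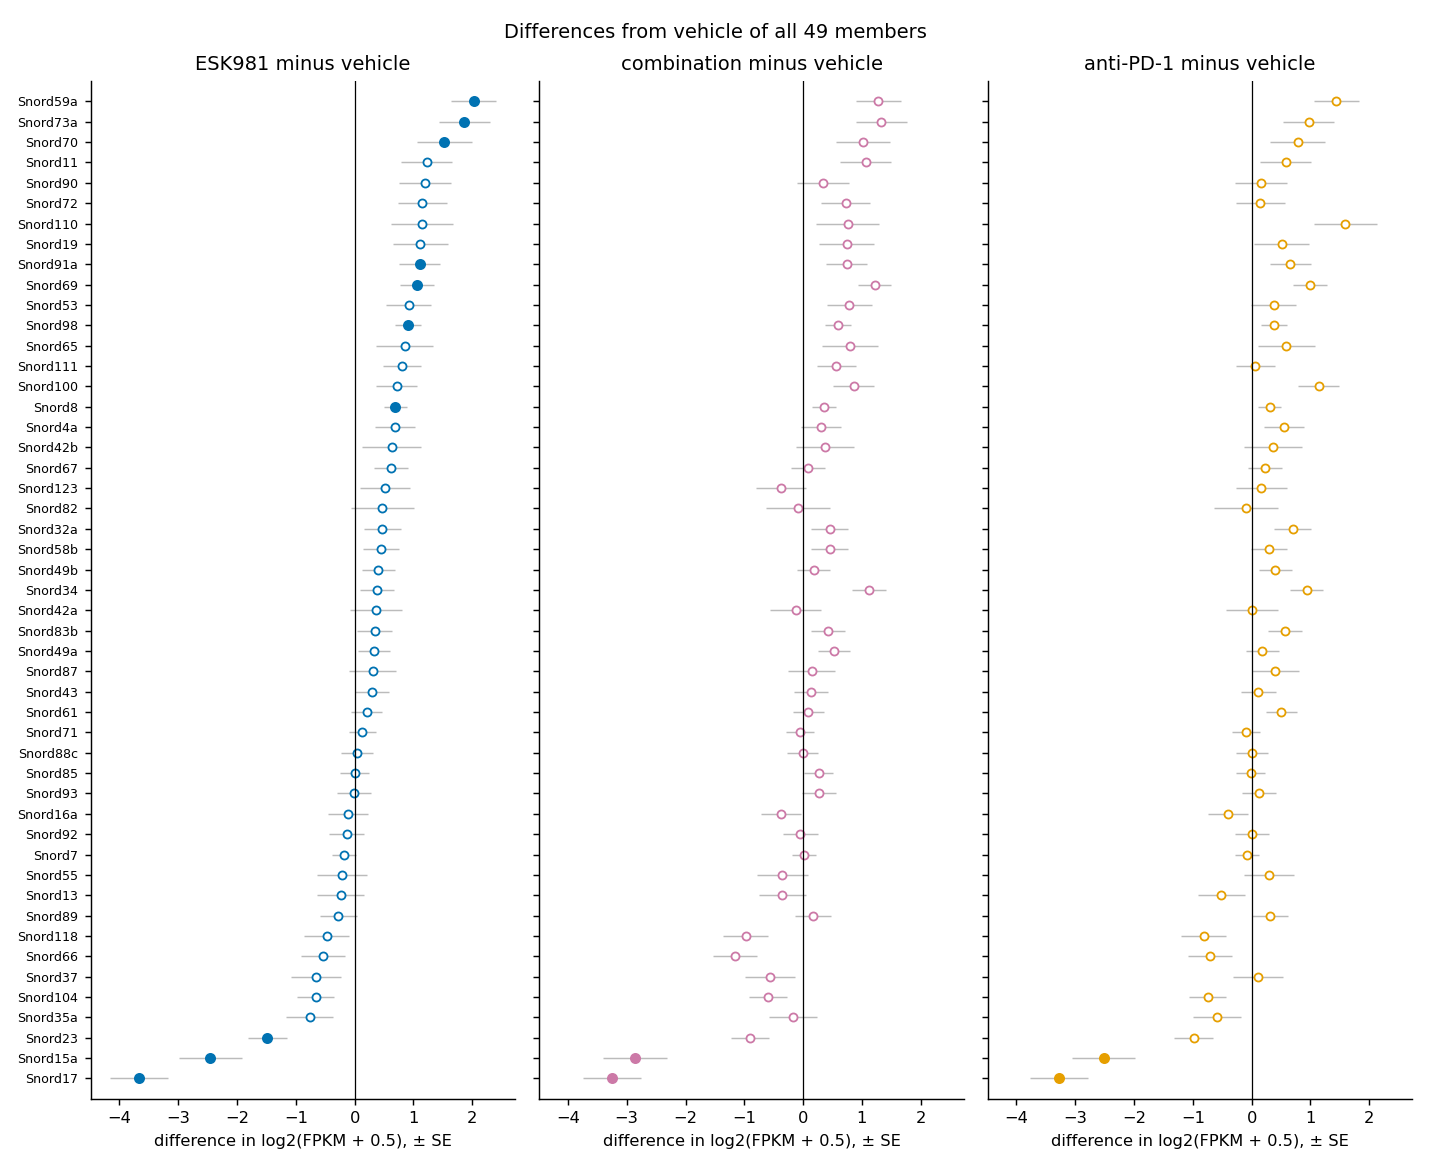
Difference from vehicle of each of the 49 members in log2(FPKM + 0.5), with its limma standard error, for ESK981, the combination and anti-PD-1 (5 mice per group). Filled points passed an adjusted p of 0.05, open points did not; members are ordered by the ESK981 difference, with Snord17 and Snord15a lowest in all 3 panels.

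Snord17, a methylation guide for the large-subunit ribosomal RNA, was the most abundant member and fell in all 3 treated groups. Its level in vehicle tumours was lowest at 770, median 1200 and highest at 2332 FPKM. In ESK981 tumours it was lowest at 75.8, median 85.6 and highest at 293 FPKM. In combination tumours the lowest was 48.7, the median 78.3 and the highest 566 FPKM. Every ESK981 and combination tumour lay below every vehicle tumour. In anti-PD-1 tumours the lowest was 67.5, the median 100.2 and the highest 1461 FPKM, and that highest value, in anti-PD-1 4R, lay within the vehicle range while the other 6 tumours did not exceed 157 FPKM. As means over mice the levels were 1272 ± 331 FPKM in vehicle, 105 ± 46.7 in ESK981, 203 ± 213 in combination and 237 ± 298 in anti-PD-1 tumours (SD, n = 5 mice each).

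The differences of Snord17 from vehicle were -3.67 ± 0.49 log2 units in ESK981 tumours (SE, limma adjusted p = 0.000289), -3.26 ± 0.49 in combination (adjusted p = 0.00145) and -3.28 ± 0.49 in anti-PD-1 tumours (adjusted p = 0.00307). All 3 stayed past the threshold in each of 38 alternatives run. Without anti-PD-1 4R the last was -3.71 log2 units. Snord17 alone made up 68.8% of all member fragments over the 33 tumours. Its share of a tumour's member fragments had a median of 84.5% in vehicle and 33.6% in ESK981 tumours.

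Snord15a, also a guide for the large-subunit ribosomal RNA, followed the same course at a lower level. Its FPKM in vehicle tumours was lowest at 116, median 175 and highest at 330. In ESK981 tumours the lowest was 18, the median 32.6 and the highest 59.4 FPKM, and in combination tumours the lowest was 3.49, the median 22.5 and the highest 82.6 FPKM. Neither group overlapped the vehicle tumours. In anti-PD-1 tumours the lowest was 15.3, the median 22.1 and the highest 307 FPKM, again in anti-PD-1 4R. The differences were -2.46 ± 0.54 (limma adjusted p = 0.00787), -2.86 ± 0.54 (adjusted p = 0.0113) and -2.52 ± 0.54 log2 units (adjusted p = 0.0294) for ESK981, combination and anti-PD-1. Without any filter on low values the last 2 no longer passed, and the anti-PD-1 difference passed in 13 of 20 fits that left out 1 mouse. Without anti-PD-1 4R alone it was -2.89 log2 units (limma adjusted p = 0.00267).

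The share of fragments on ribosomal-RNA-like and mitochondrial genes was set beside both RNAs. Vehicle 5R, the 1 vehicle tumour on the flow cell of the treated tumours, had 1426 FPKM of Snord17 and 330 FPKM of Snord15a, both within or at the top of the vehicle range. With flow cell as a term both members still passed in all 3 comparisons. Only vehicle 5R carries the vehicle side of that term, so the fit cannot separate flow cell from treatment. That tumour also had the highest share of all, 46.8%. Of the 23 treated tumours, the 4 with the most Snord17 (1461, 566, 344 and 293 FPKM) had shares of 30.6%, 11.5%, 10.7% and 15.2%, and 18 treated tumours with shares of at most 10% ranged from 48.7 to 180 FPKM. Combination 5R was apart from this order, with a share of 18.3% and 53.8 FPKM. Within the vehicle group the order was mixed. Snord17 was lowest, at 770 FPKM, at the lowest share (9.60%, vehicle 1L), and was 1426 FPKM at the highest (46.8%, vehicle 5R). It was 2332 FPKM with 18.9% in vehicle 2L, however, and 869 FPKM with 29.1% in vehicle 3R. Against the 770 FPKM of vehicle 1L, combination 1R had 180 FPKM of Snord17 at 9.26%. In ESK981 tumours Snord15a was highest, at 59.4 FPKM, with 3.86% in ESK981 5R, against 38.9 FPKM with 15.2% in ESK981 3R. What part this share has in the result was not tested beyond the scaling alternatives.

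**Figure D2:**
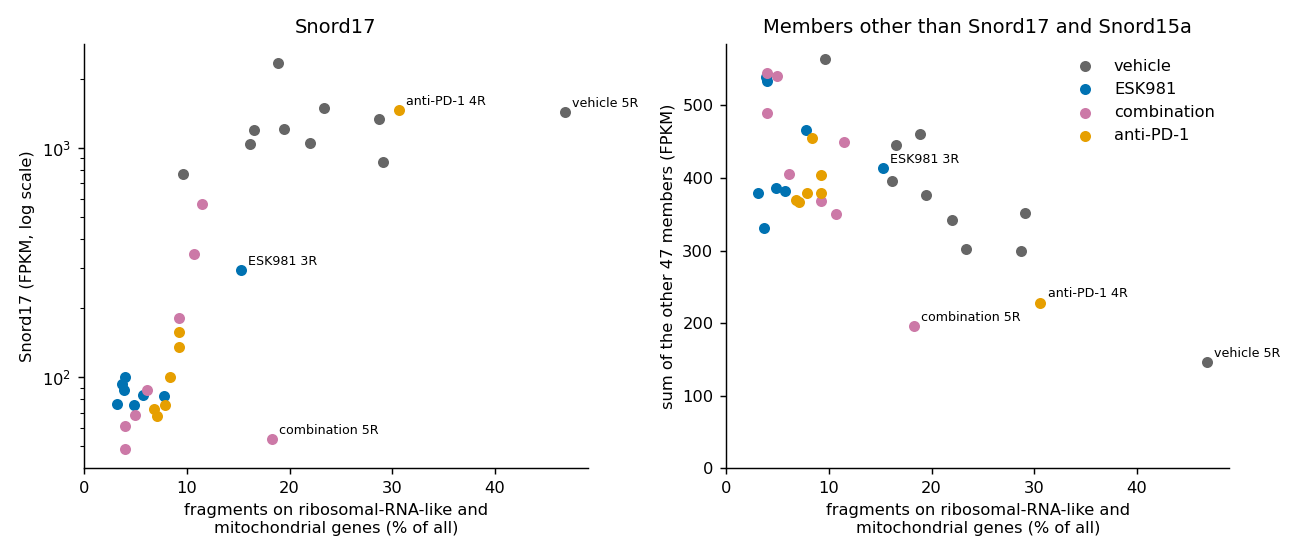
Snord17 (left, FPKM on a log scale) and the summed FPKM of the other 47 members without Snord15a (right) against the percentage of fragments on ribosomal-RNA-like and mitochondrial genes, 1 point per tumour, coloured by group. Among treated tumours Snord17 is highest where the share exceeds 10%, except in combination 5R, and the other 47 members together are lowest in vehicle 5R, combination 5R and anti-PD-1 4R.

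Snord23, the member with the highest GC content (65.1%), was the third to fall in ESK981 tumours. Its level was lowest at 0, median 1.95 and highest at 3.85 FPKM in vehicle tumours, and lowest at 0, median 0.141 and highest at 1.12 FPKM in ESK981 tumours. The mice of the 2 groups did not overlap, while single tumours did, since vehicle 4L and 5R were listed at 0. The difference was -1.49 ± 0.33 log2 units (limma adjusted p = 0.00834), and it rested on 30 fragments over 10 vehicle tumours and 7 over 8 ESK981 tumours. With flow cell as a term it was 0.55 with an adjusted p of 0.549, so the call ended and the direction turned. In combination and anti-PD-1 tumours the differences were -0.90 and -0.99 log2 units, and neither passed (limma adjusted p = 0.262 and 0.164).

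The members that take part in cutting or modifying ribosomal RNA, and the member that shares with them the lack of a host, had negative differences that did not pass the test. Snord118 (U8), needed for the maturation of the large-subunit ribosomal RNA, had medians of 32.5 FPKM in vehicle, 28.0 in ESK981, 19.5 in combination and 17.1 in anti-PD-1 tumours. Its groups overlapped, and its differences were -0.47, -0.97 and -0.82 log2 units (limma adjusted p = 0.414, 0.299 and 0.365). Anti-PD-1 4R was again the highest of its group at 49.1 FPKM, the others ranging up to 22.5 FPKM. Snord13 (U13), which assists the acetylation of the small-subunit ribosomal RNA, had differences of -0.23, -0.36 and -0.52 log2 units.

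Snord104, a short guide of 70 bases, had medians of 55.4 FPKM in vehicle, 31.9 in ESK981, 35.7 in combination and 28.8 in anti-PD-1 tumours. Vehicle 5R was the exception at 10.1 FPKM, where the other 9 vehicle tumours lay between 45.5 and 83.0 FPKM. Its differences were -0.67, -0.60 and -0.75 log2 units, and none passed (limma adjusted p = 0.155, 0.452 and 0.307). With flow cell as a term, which rests on vehicle 5R, they became 1.55, 1.67 and 1.43 and passed.

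**Figure D3:**
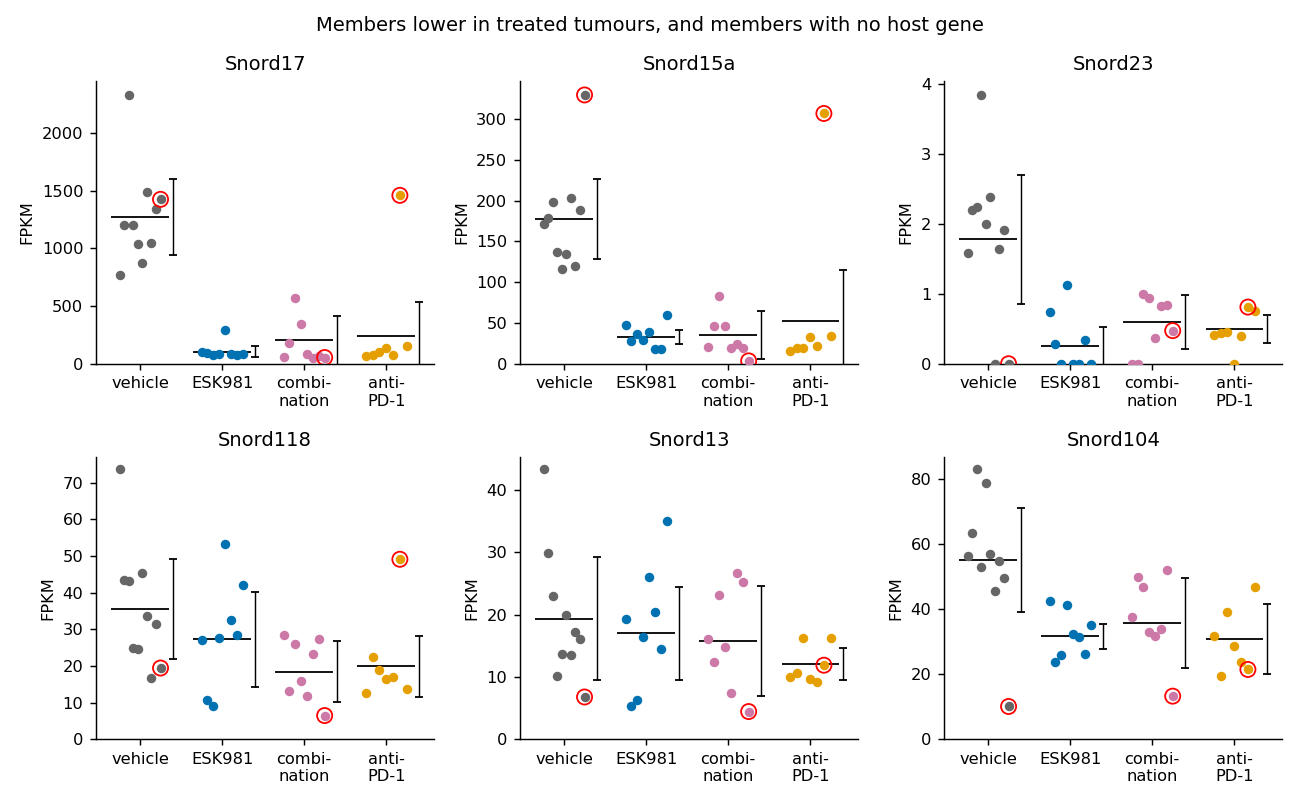
FPKM of Snord17, Snord15a, Snord23, Snord118, Snord13 and Snord104 in each tumour by group; black lines are means over 5 mice, bars their SD (cut at 0), and red circles mark combination 5R, anti-PD-1 4R and vehicle 5R. Snord17 and Snord15a are low in all treated tumours but anti-PD-1 4R, and Snord118, Snord13 and Snord104 overlap between groups.

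The 7 members that rose in ESK981 tumours are guides of 65 to 110 bases, each from a different host gene. Their medians in vehicle tumours ran from 0.892 FPKM for Snord59a to 7.35 FPKM for Snord70, and 6 of them lay below the median GC content of the members. Snord70 was the one whose tumours were fully apart from vehicle. The share of all genes with groups fully apart is not given here, for Snord70 or for the members that fell.

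Snord70, from an intron of Nop58, which itself encodes a core protein of these particles, was lowest at 1.16, median 7.35 and highest at 9.64 FPKM in vehicle tumours. In ESK981 tumours it was lowest at 12.05, median 16.9 and highest at 23.9 FPKM. Combination tumours ranged from 4.74 to 25.4 with a median of 16.3 FPKM, and anti-PD-1 tumours from 0 to 16.6 with a median of 13.5 FPKM. The 0 was that of anti-PD-1 4R, and the other 6 anti-PD-1 tumours had at least 9.14 FPKM. The difference in ESK981 tumours was 1.53 ± 0.47 log2 units (limma adjusted p = 0.0351). It passed in 14 of 20 fits that left out 1 mouse.

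Snord59a, a guide for the small-subunit ribosomal RNA, had the largest difference among the members that rose in ESK981 tumours, 2.02 ± 0.38 log2 units (limma adjusted p = 0.00369). It was lowest at 0, median 0.892 and highest at 3.50 FPKM in vehicle tumours, and lowest at 3.19, median 3.77 and highest at 6.15 FPKM in ESK981 tumours. One vehicle tumour, 3R, reached into the ESK981 range. These levels rest on 11 fragments over the 10 vehicle tumours, with 4 of them at 0, and on 61 over the 8 ESK981 tumours. The call held in each of 38 alternatives, with differences from 0.65 to 3.03 as the pseudocount and the other settings changed.

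Snord73a, carried by the ribosomal protein gene Rps3a1, differed by 1.87 ± 0.43 log2 units in ESK981 tumours (limma adjusted p = 0.0102). Its levels were lowest at 0, median 2.88 and highest at 5.29 FPKM in vehicle and lowest at 4.88, median 10.02 and highest at 16.4 FPKM in ESK981 tumours. ESK981 3R, the tumour with the highest ribosomal-RNA-like and mitochondrial share of its group, was the only one that reached down into the vehicle range. With flow cell as a term the call ended (adjusted p = 0.175).

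The other 4 rose less. Snord91a, from Tsr1, a gene for a ribosome assembly factor, had medians of 4.50 FPKM in vehicle and 9.16 in ESK981 tumours, a difference of 1.11 ± 0.35 log2 units (limma adjusted p = 0.0391). Snord69, from Gnl3, the gene for nucleostemin, had medians of 3.64 and 7.15 FPKM and a difference of 1.07 ± 0.29 (adjusted p = 0.0203). Snord98, from Ccar1, had medians of 6.56 and 13.03 FPKM and a difference of 0.90 ± 0.22 (adjusted p = 0.0128). In these 3 members the ESK981 and vehicle tumours overlapped. Snord8, from the chromatin remodeller gene Chd8, had medians of 2.89 and 4.90 FPKM and a difference of 0.69 ± 0.20 (adjusted p = 0.0280), also with overlap. For Snord69, which lies within an exon of a Gnl3 transcript, fragments of that transcript and of the snoRNA cannot be told apart. Snord8 overlaps Gm26590 on the other strand, and Snord42a and Snord4a overlap Tlcd1. Whether counting used strand is not given in the sources used here.

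**Figure D4:**
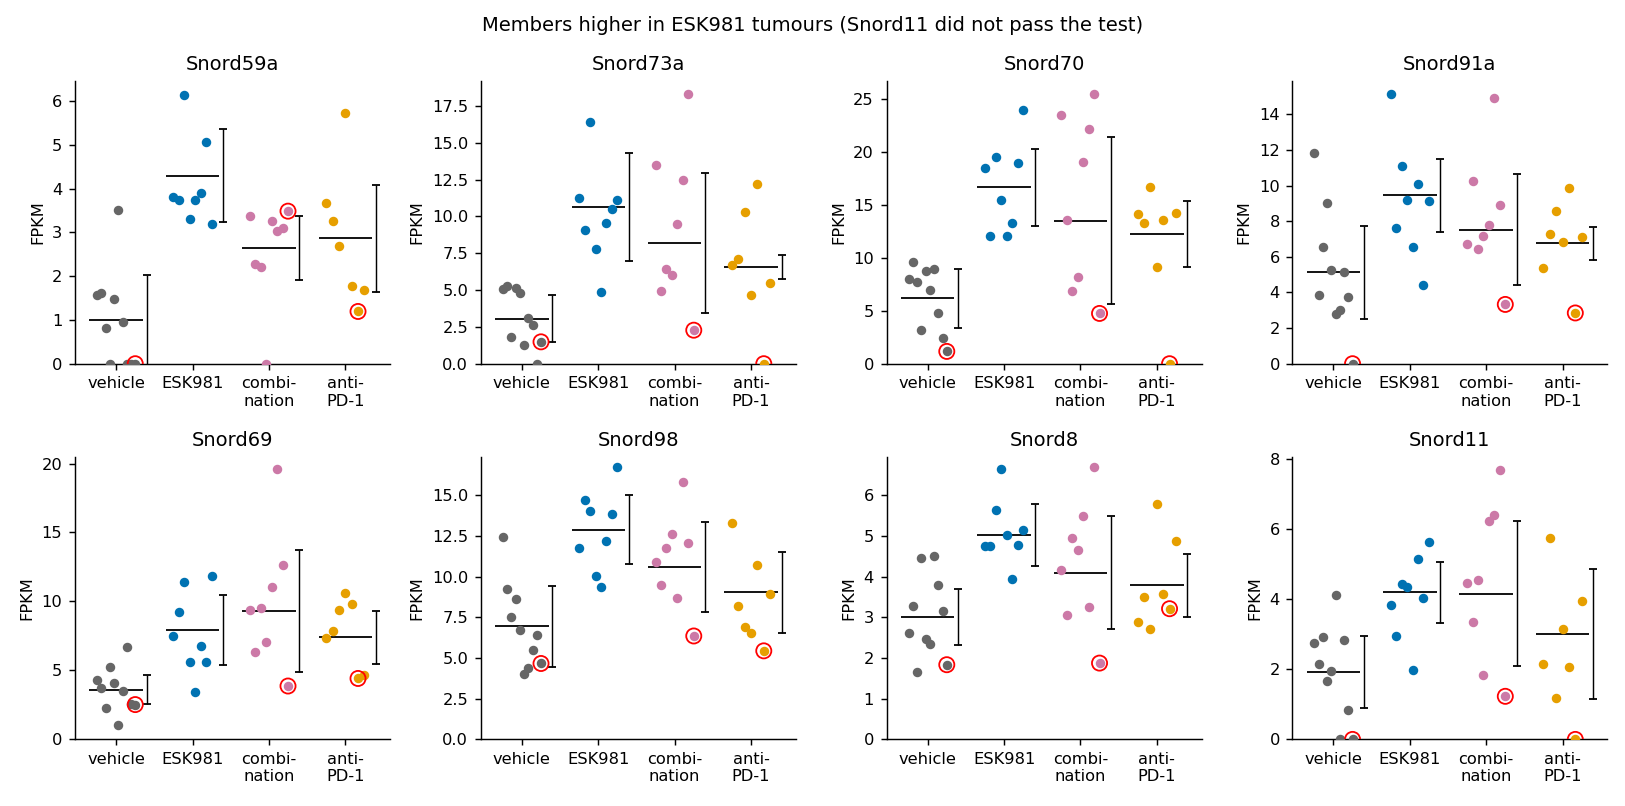
FPKM of the 7 members that rose in ESK981 tumours, and of Snord11, which shares the host Nop58 with Snord70 and did not pass, in each tumour by group. Black lines are means over 5 mice and bars their SD (cut at 0); red circles mark combination 5R, anti-PD-1 4R and vehicle 5R, which are low for most of these members.

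In combination and anti-PD-1 tumours the 7 had positive differences that did not pass. In combination tumours they ran from 0.36 for Snord8 to 1.33 for Snord73a, and in anti-PD-1 tumours from 0.30 for Snord8 to 1.44 for Snord59a. Nearest to the threshold was Snord69 in combination tumours at 1.22 ± 0.29 log2 units (limma adjusted p = 0.0528), followed by Snord59a in anti-PD-1 tumours at 1.44 ± 0.38 (adjusted p = 0.0760). Without anti-PD-1 4R alone, 6 members were called higher in anti-PD-1 tumours, and without combination 5R alone 3 were called higher in combination tumours. Without combination 5R, anti-PD-1 4R and vehicle 5R together, the counts of higher members were 12 for ESK981, 8 for the combination and 8 for anti-PD-1, and those of lower members 4, 3 and 5. With ESK981 3R left out as well they were 13, 9 and 8 higher and 4, 2 and 5 lower. Without ESK981 3R alone, 9 were higher and 3 lower for ESK981. The share of all genes called in each of these refits is not given here, so the counts have no background beside them.

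Vehicle 5R, combination 5R and anti-PD-1 4R had low levels of most members other than Snord17 and Snord15a. This was not particular to the members. The same tumours were the lowest of their groups for many host genes, though not for all. For Nop58 they had 3.39, 3.89 and 2.62 FPKM. The share over all genes is not given here. Among the 47 members other than Snord17 and Snord15a, vehicle 5R was the lowest of its 10 tumours (or tied) for 30, anti-PD-1 4R the lowest of 7 for 33, and combination 5R the lowest of 8 for 30. The summed FPKM of the 47 was 146 in vehicle 5R, 228 in anti-PD-1 4R and 196 in combination 5R. Group medians of this sum were 364 in vehicle, 400.3 in ESK981, 427 in combination and 379 in anti-PD-1 tumours. Anti-PD-1 4R was at once high in Snord17, Snord15a and Snord118 and low in Snord70, Snord73a, Snord49a and Snord93.

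Of the other members named here, Snord49a, Snord49b, Snord93, Snord43 and Snord53 did not pass the test against vehicle. Snord49a had means of 19.3 ± 7.35 FPKM in vehicle, 22.9 ± 4.80 in ESK981, 26.2 ± 2.83 in combination and 22.4 ± 6.49 in anti-PD-1 tumours (SD, n = 5 mice each). Its difference in ESK981 tumours was 0.32 log2 units with a 95% interval from -0.25 to 0.90 (limma adjusted p = 0.436), and that of its neighbour Snord49b was 0.40 with an interval from -0.18 to 0.99. Snord93, from the non-coding gene 2700038G22Rik, differed by -0.01 log2 units with an interval from -0.61 to 0.59. With flow cell as a term Snord93 was at 1.80 and passed. Snord43, from the ribosomal protein gene Rpl3 and typed as a miRNA in the deposited table, differed by 0.30 with an interval from -0.31 to 0.91. Snord53, from Wdr43, differed by 0.92 with an interval from 0.12 to 1.72, and did not pass over all genes (adjusted p = 0.106).

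Members carried by the same host did not all have the same difference, though differences between them were not tested. Snord70 and Snord11, both in Nop58, were at 1.53 and 1.22 log2 units in ESK981 tumours, the second not called (limma adjusted p = 0.0586). Snord69 and Snord19 in Gnl3 were at 1.07 and 1.11, the second not called. Snord53 and Snord92 in Wdr43 were at 0.92 and -0.13, and Snord43 and Snord83b in Rpl3 at 0.30 and 0.34. Within Rpl13a, Snord32a was at 0.47, Snord34 at 0.38 and Snord35a at -0.77, and within Rpl23a, Snord4a was at 0.68, Snord42b at 0.63 and Snord42a at 0.37. Snord65 in 2410006H16Rik was at 0.85, above Snord49a and Snord49b. None of the members in Rpl13a, Rpl23a, Rpl3, Wdr43 or 2410006H16Rik passed the test.

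The host genes themselves moved little. Of the 36 hosts, 1 was called higher in ESK981 tumours and 0 lower, and in combination and anti-PD-1 tumours 0 were called by limma. The one called was Rc3h2, at 0.62 log2 units (adjusted p = 0.0190), which carries Snord90 (1.19, adjusted p = 0.0713). For the members that fell, Snx5 differed by 0.23, Rps3 by -0.12 and Nop53 by 0.04 log2 units. For those that rose, Atp5b differed by 0.32, Rps3a1 by 0.25, Nop58 by 0.30, Tsr1 by 0.22, Gnl3 by 0.25, Ccar1 by 0.39 and Chd8 by 0.27, and none of these passed. The member and its host had the same sign in 33 of 46 cases in ESK981 tumours. Across these 46 members, which share libraries and in part hosts, Spearman's rho between the 2 differences was 0.21 as a description.

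The proteins that build, process and move these RNAs were not called in any comparison with vehicle. The list held 4 core proteins (Fbl, Nop56, Nop58 and Snu13), 7 assembly factors such as Nufip1, Znhit3, Ruvbl1 and Ruvbl2, 5 factors of release and trimming (Dbr1, Aqr, Exosc10, Xrn2 and Parn) and 4 of cap formation and transport (Tgs1, Nolc1, Coil and Phax). All 20 were tested, and 0 were higher and 0 lower in ESK981, combination or anti-PD-1 tumours by limma. Their differences in ESK981 tumours ran from -0.46 for Fbl, the methyltransferase, to 0.46 for Parn, which trims RNA ends, around a median of 0.12 log2 units. Other small RNAs made from genes of their own did pass. Of the 5 tested (Rn7s1, Rn7s2, Rmrp, Rpph1 and Vaultrc5), 4 were lower in ESK981, 3 in combination and 3 in anti-PD-1 tumours. Their summed level in anti-PD-1 4R, 39414 FPKM, was above the highest vehicle tumour (38702 FPKM), and the medians were 27283 FPKM in vehicle and 10551 in ESK981 tumours.

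Length and base composition were set beside the differences. The 3 members over 130 bases had negative differences in all 3 comparisons, and 2 of them were called. Of the 7 members of 100 to 130 bases, 4 had a positive and 3 a negative difference in ESK981 tumours. Of the 39 members under 100 bases, 29 were positive, with 6 called higher and 0 called lower. Over all genes tested 8.95% were called higher and 5.43% lower in ESK981 tumours. The share of all genes with a positive difference is not given here. GC content ran from 29.6% to 65.1% with a median of 46.2%. Of the 24 members below that median 22 had a positive difference and 6 were called higher. Of the 25 at or above it, 11 were positive, with 1 called higher and 3 lower. Spearman's rho between GC content and the ESK981 difference was -0.63 over the 49 members, which share libraries and scaling. It was -0.52 over the 15743 other genes with a GC value, and -0.33 over the 1549 of them with a longest transcript under 300 bases. The relation was therefore also present among other genes, and weaker among short ones. When each tumour was centred within 20 bins of GC content, 4 members were called higher (Snord59a, Snord73a, Snord69 and Snord8). The same count of 3 was lower. The share of all genes called after centring is not given here.

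**Figure D5:**
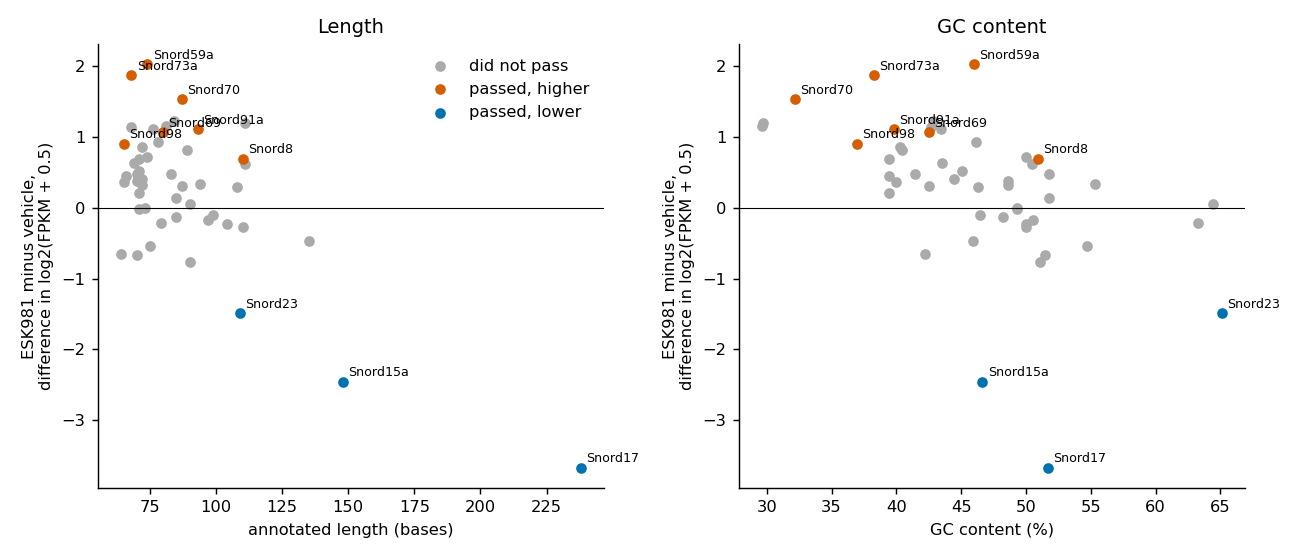
Difference between ESK981 and vehicle tumours in log2(FPKM + 0.5) against annotated length (left) and GC content (right), 1 point per member. Members that passed the test are named; the 2 longest, Snord17 and Snord15a, are lowest, and 6 of the 7 that rose lie below the median GC content of 46.2%.

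Between the treated groups, which share a flow cell, no member passed the test. The counts by limma were 0 of 49 for combination against ESK981 (0% of all genes, and 2 members at an unadjusted p under 0.05), 0 for combination against anti-PD-1 (0% of all genes, 0 members unadjusted) and 0 for ESK981 against anti-PD-1 (0.00631% of all genes, 4 members unadjusted). The intervals were wide. For Snord17 the difference was 0.41 log2 units between combination and ESK981 (95% interval from -0.62 to 1.43), 0.02 between combination and anti-PD-1 (-1.01 to 1.04) and -0.39 between ESK981 and anti-PD-1 (-1.41 to 0.63). For Snord70 they were -0.51 (-1.48 to 0.46), 0.23 (-0.74 to 1.20) and 0.74 (-0.23 to 1.71). The counts of members called stayed at 0 in every alternative run.

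The interaction asks whether anti-PD-1 changed a member by another amount with ESK981 than without it. It was called for 0 of 49 members by limma, with 0.0252% of all genes called and 9 members at an unadjusted p under 0.05. Snord17 had the smallest adjusted p, 0.0599, at 3.68 ± 0.70 log2 units, the combination being low like each single treatment and not lower. Snord59a had the opposite sign at -2.18 ± 0.54 (adjusted p = 0.0961). Both contrasts include the vehicle group, with 9 of its 10 tumours on another flow cell. Flow cell and interaction therefore cannot be told apart.

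Low counts limit many members. Fragments over all 33 tumours ranged from 13 for Snord61 to 63748 for Snord17. The filter was passed by 24 members in all 33 tumours and by 25 in fewer, least often by Snord67 (6 tumours), Snord61 (10), Snord23 (16) and Snord90 (19), while all rows outside it were at 0. Members with at least 10 fragments in at least 5 tumours numbered 36. Of these, 6 were called higher and 2 lower in ESK981 tumours, the calls of Snord59a and Snord23 being outside them. Over all genes tested, whatever their depth, 8.95% were called higher and 5.43% lower.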

How the data were processed

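Total RNA of 33 tumours was sequenced after ribosomal RNA depletion, per the labels' protocols. STAR, featureCounts and the mm10 build are named in the submitters' processing notes, with versions not given in the sources used here. The authors deposited FPKM values per gene. From these, log2(FPKM + 0.5) was averaged per mouse and fitted over the 4 groups with limma 3.58.1 (trend) in R 4.3.3, on the 15846 genes with at least 0.5 FPKM in at least 5 tumours. P-values were adjusted by Benjamini-Hochberg and called under 0.05, and log2 differences understate the change of low genes. Fragments were recovered from FPKM steps (whole within 0.01) and cover counting error only. Positions, hosts and sequences are from GENCODE M21 (GRCm38). Named members are up to 8 called each way per comparison with vehicle, the 8 of highest mean FPKM, and fixed ribosomal-RNA-processing and host-family members; members that share a host, lack a box or mark the filter are also named, after their values were seen. The members and lists were chosen with earlier results of these data known. Alternatives changed the pseudocount, filter, scaling, flow cell term, tumours and GC centring; 6 were added after seeing the data. The fit was tested on simulated data. The mice are separate animals by ear tag. Fewer cells of a type and less RNA per cell cannot be told apart in bulk tumours.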

Additional observations from a re-analysis of the deposited data

Results flagged for a closer look

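Within each group, the highest and the lowest tumour of each of the 18 named members were compared with the rest of their group by the gap to the nearest tumour over the group's range on the log2 scale. In 72 such groups 17 tumours stood apart by Dixon's 95% limit. Chance gives about 1 in 20 for independent groups. These 72 groups share libraries across members and are not independent, so the 17 cannot be set against that share.

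Anti-PD-1 4R accounted for 7 of the 17. It was the highest of its group in Snord17 (1461 FPKM, the next tumour 157), Snord15a (307 FPKM, next 33.8) and Snord118 (49.1 FPKM, next 22.5). It was the lowest in Snord70 (0 FPKM, next 9.14), Snord73a (0 FPKM, next 4.68), Snord49a (3.68 FPKM, next 18.9) and Snord93 (12.4 FPKM, next 22.1).

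Vehicle 5R was the lowest of its group in Snord91a (0 FPKM, next 2.79), Snord104 (10.1 FPKM, next 45.5), Snord93 (5.69 FPKM, next 16.6) and Snord43 (5.61 FPKM, next 12.4). Vehicle 5L was the lowest in Snord73a (0 FPKM, next 1.27) and vehicle 3R in Snord53 (1.11 FPKM, next 9.06).

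ESK981 3R was the highest of its group in Snord17 (293 FPKM, next 99.8). Combination 5R was the lowest in Snord104 (13.3 FPKM, next 31.7) and combination 3L in Snord59a (0 FPKM, next 2.21). Anti-PD-1 3R was the lowest in Snord23 (0 FPKM, next 0.400), which is 0 fragments against 1.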

How the results depend on the processing

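Of the calls against vehicle, Snord17 in all 3 groups and Snord15a and Snord59a in ESK981 tumours held in each of 38 alternatives. Counts in the alternatives are of members only, without the share of all genes called in each. The number called higher did not hold. For ESK981 (7 higher) it was 3 without a filter on low values and 3 without ESK981 1R and 2R, 4 after rescaling without ribosomal-RNA-like and mitochondrial genes and 4 after GC centring, 12 without the 3 tumours combination 5R, anti-PD-1 4R and vehicle 5R, and 17 with a flow cell term. For the combination (0 higher) it was 1 with the stricter filter, without vehicle 5R, without ESK981 1R and 2R, with the mouse as a random effect, after GC centring and without vehicle 5R and anti-PD-1 4R. It was 2 after rescaling and without anti-PD-1 4R alone, 3 with median-of-ratios scaling and without combination 5R alone, 8 without the 3 tumours and 18 with a flow cell term. Its number lower (2) was 1 without a filter. For anti-PD-1 (0 higher) it was 1 without combination 5R alone, 4 without vehicle 5R and anti-PD-1 4R, 6 without anti-PD-1 4R alone, 8 without the 3 tumours and 11 with a flow cell term. Its number lower (2) was 1 without a filter, 4 without vehicle 5R and anti-PD-1 4R, and 5 without the 3 tumours. The interaction (0) had 1 member higher with pseudocount 5, median-of-ratios scaling, a flow cell term, GC centring and without anti-PD-1 4R alone, 2 without combination 5R alone and without vehicle 5R and anti-PD-1 4R, and 4 without the 3 tumours. It had 1 lower without the 3 tumours, without anti-PD-1 4R alone and without vehicle 5R and anti-PD-1 4R, and 11 with a flow cell term. Without the 3 tumours and ESK981 3R, the numbers were 13 higher for ESK981, 9 higher for the combination, 8 higher and 5 lower for anti-PD-1, and 3 higher and 2 lower for the interaction. Without ESK981 3R alone, the combination and the interaction each had 1 higher. Leaving out 1 mouse at a time gave 3 to 10 higher and 3 to 4 lower for ESK981, 0 to 3 higher and 2 lower for the combination, 0 to 2 higher and 1 to 2 lower for anti-PD-1, and 0 to 2 higher for the interaction. A term for flow cell, for which vehicle 5R alone carries the vehicle side, turned Snord23 in ESK981 tumours (0.55), Snord104 in all 3 groups (1.55, 1.67 and 1.43) and Snord93 in ESK981 tumours (1.80); the cause was not tested. Depth limits the members under 10 fragments per tumour most, Snord59a and Snord23 among those called. No paired analysis was possible because mouse numbers were given per group and tie no animals across groups.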
